A study of Mus musculus with 21 samples.

Results

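Negative feedback on the ERK pathway was read out at the transcript level through 10 genes in Ba/F3 cells expressing JAK2-V617F. The genes were taken from a list of transcripts that ERK signaling induces and whose products restrain or report on the same pathway: the phosphatases Dusp2, Dusp4, Dusp5 and Dusp6, the Sprouty and SPRED genes Spry1, Spry2, Spred1 and Spred2, and the transcription factor genes Etv5 and Egr1. Of these 10 genes, 8 had a row in at least 1 of the 4 deposited expression tables and 7 had a row in all 4, against 14698 genes in at least 1 table and 9973 in all 4. Spry1 and Egr1 had a row in none of the tables and were not analysed here. Dusp2 had a row only in the tables of the washout experiments.

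Activated cytokine receptors signal through JAK2 to STAT5 and, through adaptor proteins, to RAS, RAF, MEK and the kinases ERK1 and ERK2. Active ERK switches on its own brakes. Dual-specificity phosphatases remove the activating phosphates from ERK, Sprouty and SPRED proteins hold back the activation of RAS and RAF, and ETS and EGR transcription factors carry the signal on to further genes, so the transcripts of these genes are widely read as a sign of ERK output.

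Ba/F3 is a mouse pro-B cell line that needs interleukin-3 (IL-3) to grow, and here it carried the JAK2-V617F mutant, brought in by retroviral gene transfer, in all 7 groups of 3 libraries. The treated groups were collected after 6 h with DMSO, 1 μM ruxolitinib or 1 μM CHZ868. Ruxo-wash and CHZ868-wash cells received 1 μM inhibitor for 1 h, were washed with PBS and were kept without it for 6 h, and each of these groups had its own DMSO-wash group that was exposed to DMSO for 1 h and washed. Ruxolitinib is a type I and CHZ868 a type II inhibitor of JAK2. Nothing in the labels says whether the 3 libraries of a group came from separate cultures, so p-values measure only the spread between these libraries, and whether IL-3 was present during treatment is not given in the sources used here.

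Depth on the listed genes was between 7880000 and 10670000 reads in the 15 libraries whose values correspond to whole reads, and it is unknown for the 6 libraries of the ruxolitinib washout. Ruxolitinib-treated replicate 2 and DMSO-wash replicate 3 of the CHZ868 experiment stood apart from the other libraries of their groups, with a variance against them of 27.8 to 30.6 and 23.3 to 37.7 times sampling noise, where the other pair of each group had 4.34 and 5.65. STAT5 targets were lower with both inhibitors: Pim1, a survival kinase gene, differed from DMSO by -3.20 log2 units and Cish, a cytokine feedback gene, by -1.39 after 6 h of CHZ868 (adjusted p = 2.59e-13 and 1.83e-09, limma), and by -2.84 and -1.32 after 6 h of ruxolitinib, which was not tested. Of 12 pro-B cell markers only Cd79a and Cd79b had rows, and their summed level was 29.2 to 34 CPM in DMSO-treated, 38.4 to 40.1 in CHZ868-treated and 38.6 to 44.8 in ruxolitinib-treated libraries. Of 6 genes of IL-3 responsive cells 5 had rows, with a summed level of 3360 to 3420 CPM in DMSO-treated, 2640 to 2900 in CHZ868-treated and 2930 to 3490 in ruxolitinib-treated libraries. The summed level of these 5 genes was 1730 to 2000 CPM in the CHZ868 washout libraries, DMSO-wash included. It was 387 to 492 CPM in those of the ruxolitinib washout. No T cell marker of 3 had a row, and of 5 granulocyte markers the tables of the 6 h groups held 1, Prtn3. The level of Prtn3 moved with CHZ868, from 35.9 to 37.1 CPM in DMSO-treated to 18.5 to 21.2 CPM in CHZ868-treated libraries, and was 16.3 to 36.5 CPM in ruxolitinib-treated libraries. Prtn3 had 41 to 67.2 CPM in the CHZ868 washout libraries. In the ruxolitinib washout libraries 2 granulocyte markers, Prtn3 and S100a9, summed to 571 to 628 CPM. Of 5 mast cell and basophil markers only Gata2 had a row. Its level was 677 to 715 CPM in DMSO-treated, 679 to 740 in CHZ868-treated and 816 to 901 in ruxolitinib-treated libraries. With DMSO-wash included, Gata2 had 615 to 712 CPM in the CHZ868 and 812 to 872 CPM in the ruxolitinib washout libraries. The pro-B markers summed to 26 to 32.7 CPM in the CHZ868 and 21.4 to 27 CPM in the ruxolitinib washout libraries. These experiments were normalized separately, and experiment and processing cannot be told apart in these levels. The part of these shifts in the results was not tested. In bulk RNA, fewer cells of a type and less RNA per cell cannot be told apart.

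After 6 h of CHZ868, every ERK feedback transcript with a row in its table was lower. All 7 genes fell (limma-trend on log2 CPM, 2-sided, Benjamini-Hochberg adjusted p under 0.05 over 11670 genes), and in all 7 the CHZ868-treated and DMSO-treated libraries did not overlap. Of all genes, 26.4% were called lower in this comparison and 59.7% did not overlap. The median difference was -1.27 log2 units over the 7 genes and -0.0084 over all genes. Etv5 and Dusp6 lost the most and Spred1 the least, and the genes retained between 12.1% and 57.5% of their DMSO level. CPM values are not divided by transcript length, so levels are not compared between genes.

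Dusp6 encodes the cytoplasmic phosphatase that acts on ERK with high selectivity, and it is placed on chromosome 10 (99263231 to 99267489, plus strand, GRCm38). Its log2 CPM was 7.04, 6.92 and 6.94 in the DMSO-treated libraries (1146, 1239 and 1162 reads) and 4.26, 4.11 and 4.32 in the CHZ868-treated libraries (191, 129 and 159 reads). Each CHZ868-treated library was below each DMSO-treated library by more than the whole range within either group. Dusp6 fell by 2.73 log2 units (SE 0.094, 95% interval -2.93 to -2.54, adjusted p = 7.19e-12, limma), to 15% of its DMSO level, and ranked 22 of all genes by the size of the test statistic.

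The sequences upstream of Dusp6 and Dusp5 are shown for their motifs of factors that ERK acts on, which are ETS proteins and the serum response factor. Windows of 250 bases upstream of the RefSeq start (build GRCm38.p6) were found for 8 of the 10 genes, 9 windows in all, and searched on both strands. In the Dusp6 stretch, at -170 to -91 from the start (chr10:99263061-99263140, plus strand), capitals mark the 4 matches to GGAA, the ETS core, which read TTCC where they lie on the other strand and do not overlap. GGAA is common, with a match in 93.4% of 32851 promoter windows.
Dusp6: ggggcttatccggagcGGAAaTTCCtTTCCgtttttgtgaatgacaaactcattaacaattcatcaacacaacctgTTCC
In the Dusp5 stretch, at -120 to -41 from the start (chr19:53529025-53529104, plus strand), capitals mark 2 CArG boxes, the element that serum response factor binds, which lie directly end to end at -82 to -73 and -72 to -63. A CArG box was present in 1.47% of all windows, and Dusp5 was the only one of the 8 genes with a match.
Dusp5: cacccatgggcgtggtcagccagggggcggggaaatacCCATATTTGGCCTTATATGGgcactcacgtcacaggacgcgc
None of the 9 windows held TTCNNNGAA, a STAT motif (7.02% of all windows), CCGGAA, an ETS motif (12% of all windows), the cyclic AMP element TGACGTCA (1.55%) or the AP-1 motif TGAGTCA (4.46%, which reads TGACTCA on the other strand). With 2 bases in the middle of the STAT motif, TTCNNGAA, Etv5 held TTCATGAA at -246 to -239 and Spred1 held TTCCTGAA at -236 to -229, against 7.17% of all windows. These matches describe the letters in these windows.

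Dusp5, which encodes a nuclear phosphatase for ERK, lies on chromosome 19 (53529109 to 53542431, plus strand) and was near the lower end of what these libraries resolve. It had 80, 66 and 76 reads in the DMSO-treated libraries, or 3.23, 2.74 and 3.04 log2 CPM, and 17, 28 and 21 reads in the CHZ868-treated libraries, or 0.93 log2 CPM at the lowest and 1.98 at the highest. Both groups spread widely, and they still did not overlap. Dusp5 fell by 1.53 log2 units (SE 0.31, 95% interval -2.20 to -0.87, adjusted p = 0.000771, limma), and by 0.73 on the log2(CPM + 5) scale. Exons of Dusp5 overlap those of the antisense gene AC137853.2 over 547 bases, and since counting by strand is not stated, reads of these genes cannot be told apart there.

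Dusp4, another nuclear phosphatase that acts on ERK and also on other MAP kinases, lies on chromosome 8 (34807297 to 34819894, plus strand). Its level was 6.26, 6.20 and 6.16 log2 CPM with DMSO and 4.89, 4.99 and 4.93 with CHZ868. The libraries of each group lay far closer to each other than the groups did. Dusp4 fell by 1.27 log2 units (SE 0.089, 95% interval -1.46 to -1.08, adjusted p = 1.95e-08, limma), to 41.5% of its DMSO level.

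The Sprouty and SPRED genes fell as well, by less than Dusp6. Spred1, which encodes an adaptor that brings neurofibromin to RAS, lies on chromosome 2 (plus strand, 117121374 to 117182279) and went from 6.93, 7.01 and 6.88 log2 CPM with DMSO to 6.16, 6.14 and 6.12 with CHZ868. The CHZ868-treated libraries were close to identical for this gene. Spred1 fell by 0.80 log2 units (SE 0.070, 95% interval -0.95 to -0.65, adjusted p = 2.32e-07, limma), to 57.5% of the DMSO level. Spred2, a close relative on the plus strand of chromosome 11 (19924375 to 20024026), had 5.57, 5.47 and 5.60 log2 CPM with DMSO and 4.32, 4.61 and 4.60 with CHZ868. It fell by more than Spred1 in log2 units, by 1.03 (SE 0.12, 95% interval -1.28 to -0.79, adjusted p = 3.03e-06, limma). Spry2, which encodes a Sprouty protein that acts upstream of RAF, lies on the minus strand of chromosome 14 (105891947 to 105896819) and was the most scattered of the 3. Its level was 3.65, 3.83 and 3.36 log2 CPM with DMSO (108, 143 and 95 reads) and 1.88, 2.98 and 2.60 with CHZ868 (35, 58 and 47 reads). Spry2 fell by 1.12 log2 units (SE 0.27, 95% interval -1.70 to -0.55, adjusted p = 0.00264, limma), and by 0.68 on the log2(CPM + 5) scale.

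Etv5, an ETS transcription factor gene of the PEA3 group on chromosome 16 (22381309 to 22439719, minus strand), had the largest difference of the 7. It had 318, 363 and 276 reads with DMSO and 38, 56 and 16 reads with CHZ868. On the log2 CPM scale these were 5.19, 5.16 and 4.88 against 1.15 at the lowest and 2.93 at the highest, so that the CHZ868-treated libraries differed among themselves by more than for any other of the 7 genes. Etv5 fell by 3.05 log2 units (SE 0.32, 95% interval -3.73 to -2.37, adjusted p = 1.56e-06, limma), to 12.1% of its DMSO level. Leaving out 1 library at a time gave -3.50 to -2.61, and the log2(CPM + 5) scale gave -2.05. Near copies exist for Etv5 (Gm4798, 98.6% identical over 1700 bases) and Spred2 (Gm14612, 92.7% over 575 bases) that could share reads, and neither copy had a row in any table.

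**Figure D1:**
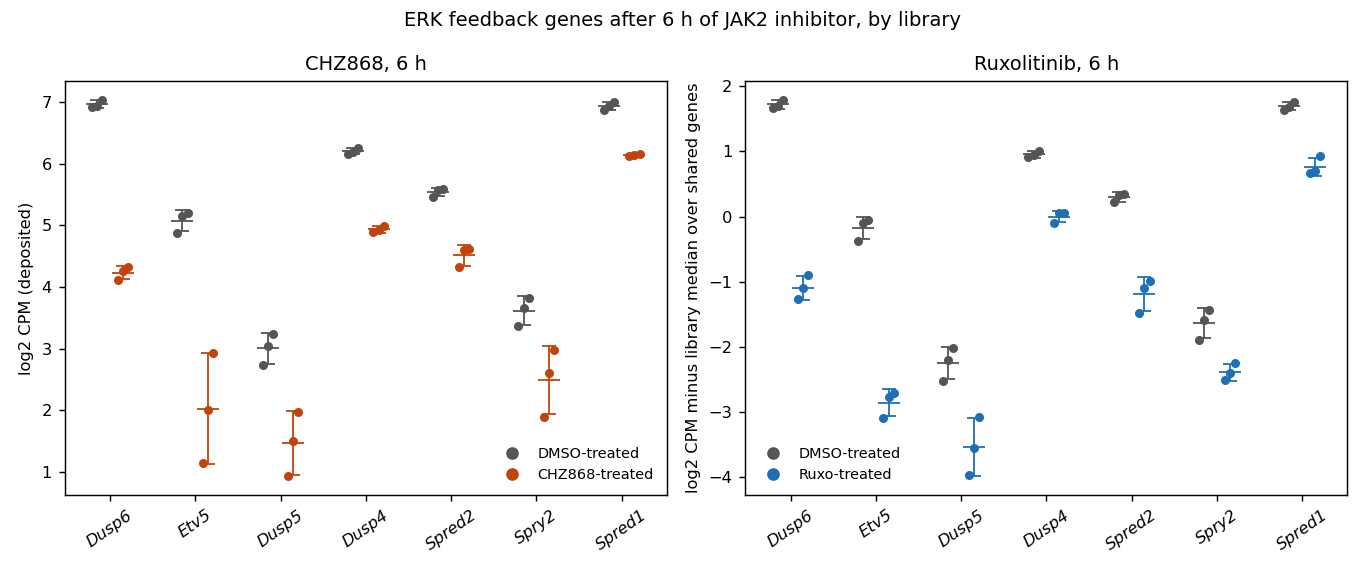
Level of the 7 ERK feedback genes in each library after 6 h of CHZ868 (left, deposited log2 CPM) or ruxolitinib (right, log2 CPM minus the median of each library over 11624 shared genes), with DMSO-treated libraries in grey and inhibitor-treated libraries in color. Points are libraries, and bars are the mean and SD of 3; in every gene and both panels the inhibitor-treated libraries lie below the DMSO-treated libraries without overlap.

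Ruxolitinib for 6 h went with lower levels of the same 7 transcripts. The ruxolitinib-treated libraries are in a table of their own that the authors normalized separately. For this comparison the median over the 11624 genes of both tables was therefore subtracted from each library, and the values are a description with no test. A gene was counted where the groups did not overlap and differed by at least 0.58 log2 units. All 7 genes met this on the lower side, against 7.32% of all genes, and 44.6% of all genes did not overlap. The median difference was -1.29 log2 units over the 7 genes and 0.04 over all genes. At a threshold of 1 log2 unit 4 of the 7 genes remained, which were Dusp6, Etv5, Spred2 and Dusp5. Of all genes 3.12% met the rule at that threshold in either direction. Without ruxolitinib-treated replicate 2, which stood apart, the count was again 7, where 10.3% of all genes met the rule in either direction.

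Dusp6 stood at 1.79, 1.67 and 1.70 above the library median with DMSO and at -0.90, -1.10 and -1.27 with ruxolitinib. The groups were separated by -2.81 log2 units, so that Dusp6 was at 14.3% of its DMSO level. Etv5 had centred levels of -0.053, -0.096 and -0.37 with DMSO and -2.78, -3.09 and -2.70 with ruxolitinib, a difference of -2.68. The ruxolitinib-treated libraries lay closer together for Etv5 than the CHZ868-treated libraries did, with an SD of 0.23 against 0.89 log2 units. Spred2 went from 0.33, 0.22 and 0.35 with DMSO to -1.48, -0.99 and -1.10, a difference of -1.49. Spred1 had 1.68, 1.76 and 1.63 with DMSO and 0.92, 0.67 and 0.70 with ruxolitinib, a difference of -0.93. Among the SPRED genes it was again Spred1 that kept more of its DMSO level, 52.6% against 35.6% for Spred2. Dusp5 differed by -1.29, Dusp4 by -0.96 and Spry2 by -0.75 log2 units. On the log2(CPM + 5) scale the differences of the low genes Dusp5 and Spry2 were -0.66 and -0.50, and Spry2 no longer met the rule.

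Set side by side, the values for CHZ868 and ruxolitinib after 6 h at 1 μM were -2.73 and -2.81 for Dusp6, -3.05 and -2.68 for Etv5, and -1.27 and -0.96 for Dusp4. Spred2 had -1.03 with CHZ868 and -1.49 with ruxolitinib. Both sets of values rest on the same 3 DMSO-treated libraries. As the inhibitor groups were normalized in separate tables, the difference between the inhibitors was not tested.

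**Figure D2:**
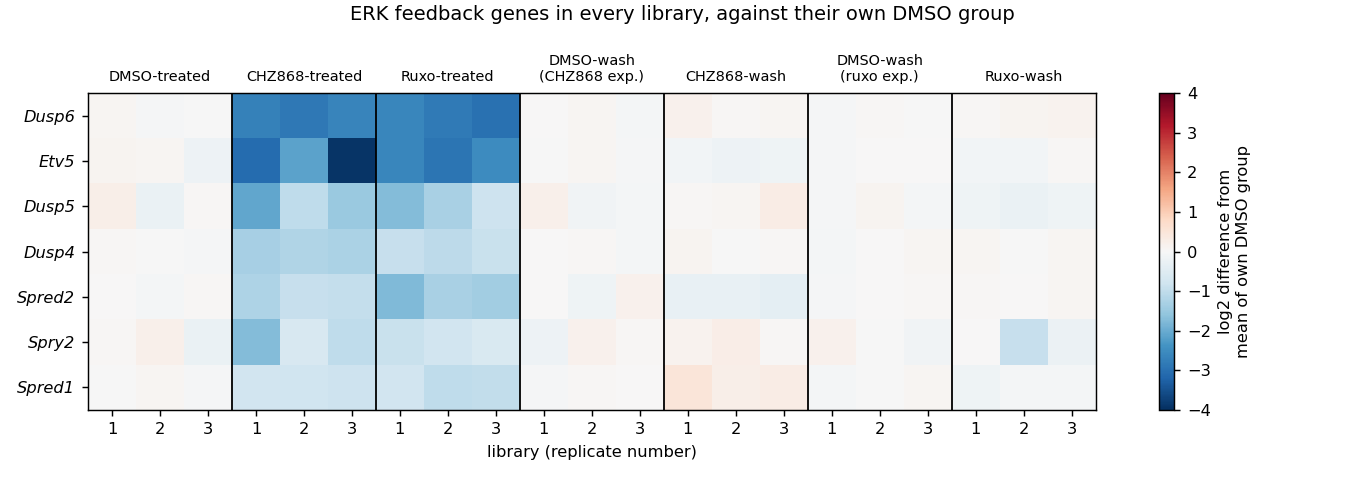
Log2 difference of each of the 21 libraries from the mean of its own DMSO group, for the 7 ERK feedback genes in all 4 tables (ruxolitinib-treated libraries after centring on the library median). Blue is lower and red is higher than DMSO; the inhibitor-treated libraries of Dusp6 lie between -2.99 and -2.62, and its inhibitor-wash libraries between 0.056 and 0.18.

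The other genes that ERK induces were read from a list of 30, of which 19 had rows in the tables of the 6 h groups. After CHZ868, 12 of the 19 fell and 3 rose, with a median of -0.72 log2 units, where 26.4% of all genes were called lower and 26.8% higher. The zinc finger genes Egr3 and Egr2, relatives of Egr1, had the largest differences. Egr3 had 81, 61 and 69 reads with DMSO and 3, 0 and 1 with CHZ868, a fitted difference of -4.48 log2 units whose size at such counts depends on the constant added before the log (adjusted p = 1.70e-06, limma). Egr2 went from 50, 88 and 56 reads to 4, 5 and 5, a difference of -3.15 (adjusted p = 7.07e-06, limma). The cytokine gene Lif, with a difference of -1.67, the AP-1 gene Junb (-1.41), the small MAF gene Maff (-1.37) and the EGR corepressor gene Nab2 (-1.23) fell as well. The genes that rose were Dusp1, a phosphatase that acts mainly on the stress-activated MAP kinases (0.82), Klf6 (0.40) and the survival gene Mcl1 (0.22). With ruxolitinib, 10 of the 19 lay lower by the rule without a test and none lay higher, with a median of -0.78, where 7.32% of all genes lay lower and 4.2% higher. Egr2 differed by -3.07 and Egr3 by -2.83, and after them came Fosl1 with -1.35, Maff with -1.33, Lif with -1.26 and Junb with -1.11. Myc differed by -0.97 with ruxolitinib and by -0.27 with CHZ868. Its ruxolitinib-treated libraries spread widely, with 7.2, 8.3 and 7.5 log2 CPM, and the 8.3 belonged to replicate 2, which stood apart. The CHZ868-treated libraries had 8.2 to 8.5 log2 CPM for Myc and the DMSO-treated libraries 8.5 to 8.7.

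**Figure D3:**
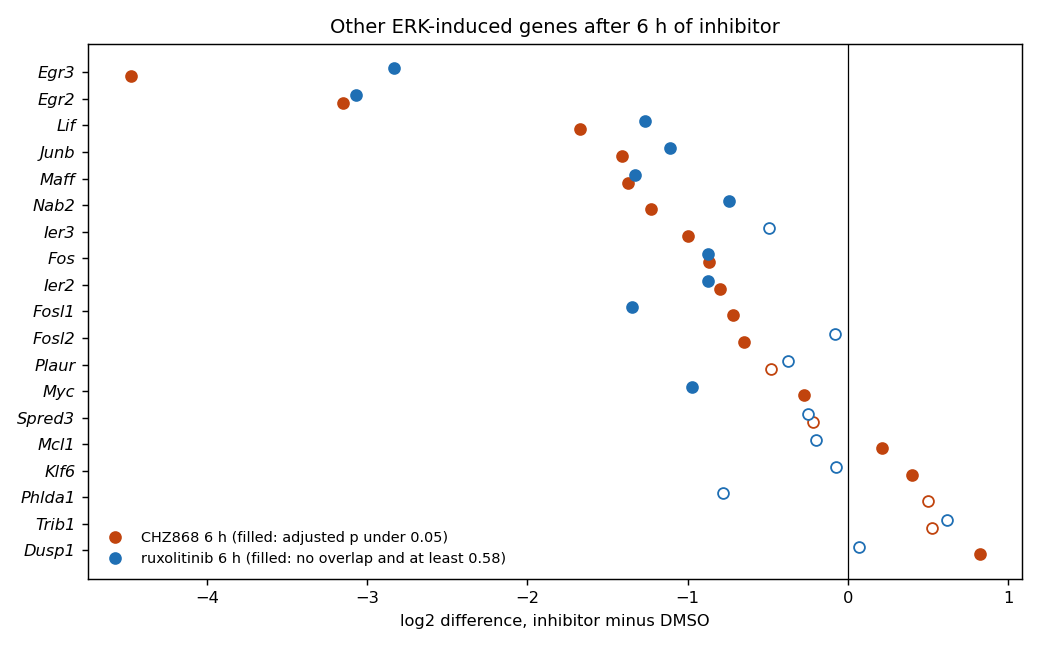
Log2 difference from DMSO after 6 h of CHZ868 (orange) and ruxolitinib (blue) for the 19 other ERK-induced genes with rows, ordered by the CHZ868 value. Filled points passed the test (CHZ868, adjusted p under 0.05) or the rule without a test (ruxolitinib, no overlap and at least 0.58); 12 of the CHZ868 points are filled to the left of 0 and 3 to the right.

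The kinases and adaptors of the cascade itself did not share a direction. Of 35 cascade genes listed, 32 had rows, and after CHZ868 7 rose and 12 fell, with a median of -0.02 log2 units. Over all genes 26.8% rose and 26.4% fell, and the counts of the cascade genes, the other phosphatase genes and the genes downstream of ERK were too near these shares to say anything about the lists, so their members are given as single genes. Mapk3, which encodes ERK1, rose by 1.13 (adjusted p = 2.27e-08, limma), from 354, 439 and 412 reads to 901, 698 and 774 reads. Rasa1, which encodes a GTPase-activating protein for RAS, rose by 0.51, whereas Hras (-0.99), Rasa2 (-0.70) and the adaptor gene Gab1 (-0.60) fell. With ruxolitinib 1 of the 32 lay higher and 1 lower by the rule, Mapk3 with 1.01 and Rasa2 with -0.88. By that rule 4.2% of all genes lay higher and 7.32% lower with ruxolitinib. Of 7 other MAP kinase phosphatase genes with rows, Dusp1 and Dusp19 (1.03) rose with CHZ868 and none fell, and with ruxolitinib none met the rule in either direction. For CHZ868 the quantile alternative called 4 of these 7, where 52.4% of all genes were called in either direction. Of 17 genes for kinases and factors downstream of ERK, 5 rose and 3 fell with CHZ868. The largest changes were -0.93 for Rps6ka4, a kinase gene, 0.74 for Mrtfa and -0.67 for Elk4, both genes of partners of serum response factor, and Srf itself fell by 0.46. With ruxolitinib Mrtfa (0.79) was the 1 gene of the 17 to meet the rule, a count that was 3 without ruxolitinib-treated replicate 2, 2 without ruxolitinib-treated replicate 1 or 3 or DMSO-treated replicate 3, and 1 without either other DMSO-treated library. Over all genes 10.3% to 15% met the rule in either direction when 1 library was left out.

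At 6 h after ruxolitinib was washed out, no ERK feedback gene differed from DMSO-wash past the threshold. Of the 8 genes with rows, 0 were called by limma, and 1, Dusp5, had an unadjusted p under 0.05. Dusp5 ranked 665 of the 13085 genes by the size of the test statistic, and many other genes passed at that level. In this comparison 0.0229% of all genes were called in either direction, 3 of 13085, and 12.9% did not overlap. The median over the 8 genes was -0.08 log2 units. Dusp6 had 7.01, 7.05 and 7.10 log2 CPM in ruxo-wash and 6.92, 7.01 and 6.92 in DMSO-wash libraries, and the groups overlapped. Its difference was 0.10, with a 95% interval of -0.0057 to 0.21 (adjusted p = 0.718, limma). Dusp5 had 4.22, 4.14 and 4.22 against 4.37, 4.51 and 4.33 and was the only one of the 8 whose groups did not overlap. The Dusp5 difference was -0.21 with an interval of -0.40 to -0.02 (adjusted p = 0.668, limma). For Dusp4, Spred1, Spred2 and Etv5 the differences were 0.05, -0.10, 0.04 and -0.05, and the intervals of these 4 genes reached from -0.25 at the lowest to 0.19 at the highest. Dusp2, which encodes a nuclear phosphatase of lymphoid and myeloid cells (plus strand of chromosome 2, 127336159 to 127338376), had 3.33, 3.76 and 3.57 in ruxo-wash and 3.87, 3.45 and 3.65 in DMSO-wash libraries, and its difference of -0.11 had an interval of -0.49 to 0.28. Spry2 was the least certain, with 2.57, 1.64 and 2.33 against 2.72, 2.53 and 2.41 and an interval of -1.02 to 0.28.

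After washout of CHZ868, again 0 of the 8 genes were called by limma, where 4.02% of all genes were called in either direction and 31% did not overlap. The SPRED genes lay nearest to the threshold and on opposite sides of 0, and they were the 2 of the 8 with an unadjusted p under 0.05. By the size of the test statistic Spred1 ranked 663 and Spred2 1245 of 11355 genes, and many other genes passed at that level. Spred1 had 7.54, 7.30 and 7.36 log2 CPM in CHZ868-wash and 7.01, 7.12 and 7.08 in DMSO-wash libraries, a difference of 0.33 (SE 0.090, 95% interval 0.14 to 0.53, adjusted p = 0.0586, limma). Spred2 had 6.06, 6.08 and 5.97 against 6.37, 6.18 and 6.54, a difference of -0.33 (SE 0.11, 95% interval -0.57 to -0.09, adjusted p = 0.0959, limma). In both genes, and in Etv5 with -0.15, the groups did not overlap. These calls turned on the DMSO-wash libraries. Without DMSO-wash replicate 3, which stood apart, Spred1 passed with 0.34 (adjusted p = 0.0150, limma) and Spred2 did not with -0.24 (adjusted p = 0.0906, limma), and 12.6% of all genes were called. Without DMSO-wash replicate 2, both passed, Spred1 with 0.36 (adjusted p = 0.0396) and Spred2 with -0.42 (adjusted p = 0.0263, limma), and 11.4% of all genes were called.

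Of the phosphatase genes, Dusp6, Dusp4 and Dusp5 had smaller differences after CHZ868 washout than Dusp2. Dusp6 had 8.46, 8.33 and 8.35 against 8.29, 8.36 and 8.19 log2 CPM, a difference of 0.10 with a 95% interval of -0.08 to 0.29 (adjusted p = 0.477, limma). Its libraries held 2410 to 3089 reads each, so that counting error was small. Dusp4 differed by 0.05 (interval -0.13 to 0.24), Dusp5 by 0.15 (-0.16 to 0.45) and Spry2 by 0.16 (-0.18 to 0.49). Dusp2 had 44, 40 and 47 reads in CHZ868-wash and 36, 44 and 18 in DMSO-wash libraries. The Dusp2 difference of 0.53 (interval -0.12 to 1.18) became 0.24 without DMSO-wash replicate 3, the library with 18 reads, and 0.76 without DMSO-wash replicate 2, the library with 44.

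**Figure D4:**
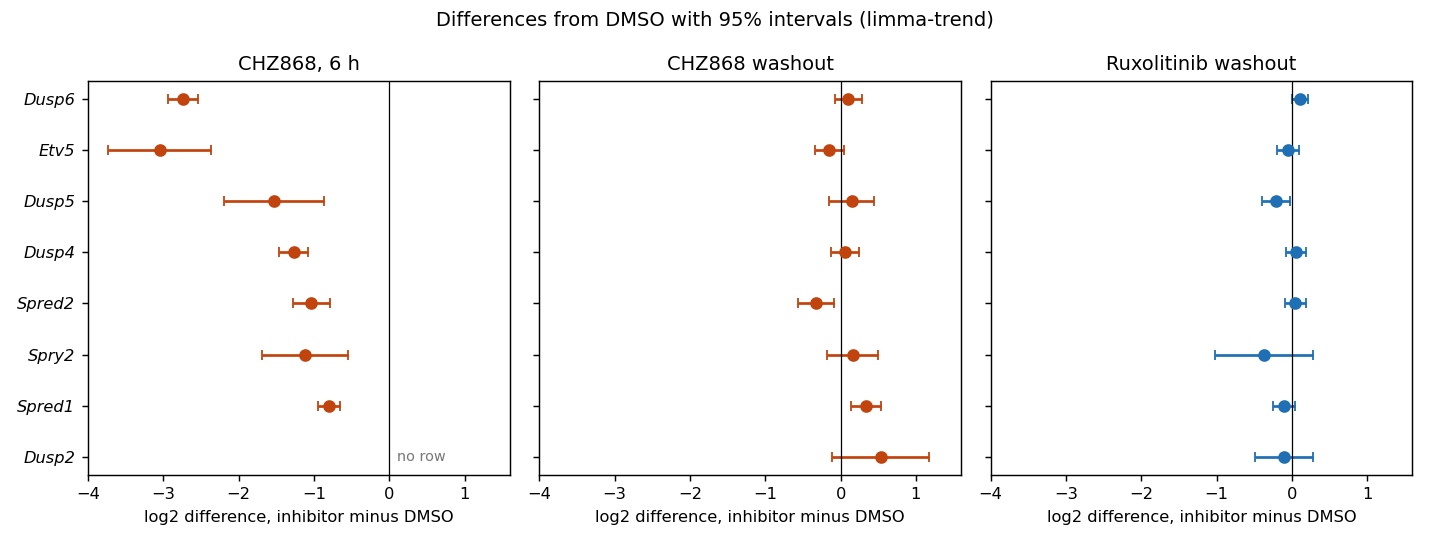
Log2 difference from DMSO (point) with its 95% interval (bar) for each ERK feedback gene in the 3 comparisons that were fitted, CHZ868 for 6 h, CHZ868 washout and ruxolitinib washout. After 6 h of CHZ868 all 7 intervals lie below 0; after washout the points of all 8 genes lie between -0.37 and 0.53.

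Few genes of the related lists were called after washout. After ruxolitinib washout limma called none of the 31 cascade genes, 22 other ERK-induced genes, 8 other phosphatase genes and 17 downstream genes with rows. After CHZ868 washout Map2k1, which encodes the ERK kinase MEK1, rose by 0.37 (adjusted p = 0.0452, limma) and Cic, which encodes a repressor of PEA3 group genes that ERK inactivates, fell by 0.45 (adjusted p = 0.0437, limma). Leaving out DMSO-wash replicate 1 or any 1 of the CHZ868-wash libraries ended both calls. In each of those fits at most 1 of all 11355 genes was called, so the loss says nothing about Map2k1 and Cic themselves. With 4.02% of all genes called when every library was kept, nothing here is particular to the lists. Without DMSO-wash replicate 3, 6 cascade genes, 5 downstream genes and 2 other ERK-induced genes were called, and without DMSO-wash replicate 2 it was 1 cascade gene, 4 downstream genes, 2 other ERK-induced genes and 1 other phosphatase gene, beside the raised shares of all genes given above. Differences of the genes not called reached -0.74 for Lif after ruxolitinib washout (adjusted p = 0.840, limma), and after CHZ868 washout 0.61 for Spry4 and -0.66 for Fosl1 (adjusted p = 0.134 and 0.0803, limma), which were named for their size after their values were seen. The Egr2 and Egr3 reads, near 0 after 6 h of CHZ868, were 51 to 70 and 79 to 112 in CHZ868-wash libraries and 51 to 76 and 72 to 89 in DMSO-wash libraries.

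Whether the washout effect of ruxolitinib differed from that of CHZ868 was fitted on the 12 washout libraries over 10078 genes. None of the 8 genes was called, where 1.9% of all genes were. Spred1 came nearest, with the ruxolitinib effect lower than the CHZ868 effect by 0.44 log2 units (95% interval -0.67 to -0.21, adjusted p = 0.0559, limma), and passed under some alternatives. Spred2 had 0.37 (interval 0.10 to 0.65, adjusted p = 0.130, limma) and Dusp5 had -0.36 (interval -0.70 to -0.0068, adjusted p = 0.257, limma). For Dusp6 the difference of the effects was -0.0011 with an interval of -0.19 to 0.19, and for Dusp4 it was -0.0021 with an interval of -0.21 to 0.20. At an unadjusted p under 0.05 there were 3 of the 8, Spred1, Spred2 and Dusp5. By the size of the test statistic they ranked 228, 847 and 1813 of the 10078 genes, and many other genes passed at that level. Each inhibitor was washed out in an experiment of its own, and the part of the experiment in this difference cannot be told apart from that of the inhibitor.

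The effect of CHZ868 present for 6 h differed from its effect after washout in all 7 genes with rows. The fit used 12 libraries and 11175 genes, and 23.8% of all genes were called with a lower effect at 6 h. The difference of the effects was -2.90 log2 units for Etv5 (SE 0.39, adjusted p = 1.68e-05, limma) and -2.84 for Dusp6 (SE 0.11, adjusted p = 8.80e-12, limma). It was smallest for Spred2, with -0.70 (95% interval -1.03 to -0.38, adjusted p = 0.00135, limma), the gene that also stayed lowest after washout. On the log2(CPM + 5) scale the difference was -1.91 for Etv5, -0.85 for Dusp5 and -0.80 for Spry2. All 7 were called when any 1 of the 12 libraries was left out. The washed cells were exposed for 1 h and the treated cells for 6 h, and they came from separate experiments with separate DMSO groups. These 7 genes were higher in the DMSO-wash than in the DMSO-treated libraries, by 0.18 log2 units for Spred1 to 1.67 for Dusp5, without a test. Length of exposure, removal of the inhibitor and experiment cannot be told apart.

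Across the 21 libraries, each taken as its difference from its own DMSO mean, Dusp6 was followed most closely by genes outside the list. The nearest other ERK feedback gene stood at rank 57, and the top 5 genes are named here. Of 9764 other genes the highest Pearson r with Dusp6 was 0.998 for Irgm1 and Irgm2, then 0.997 for BC023105 and 0.996 for Iigp1 and Tgtp1. Irgm1, Irgm2, Iigp1 and Tgtp1 encode interferon-inducible GTPases. Irgm1 differed by -2.45 and Irgm2 by -3.27 log2 units after CHZ868, and by -2.49 and -3.27 with ruxolitinib. Of the ERK feedback genes Dusp4 had the highest r, 0.98 at rank 57, followed by Etv5 with 0.962 at rank 111 and Spred1 with 0.948 at rank 171. Spred2 had 0.928, Dusp5 0.907 and Spry2 0.777, at rank 1038. For Dusp6 the libraries treated for 6 h lie apart from all others, libraries share DMSO groups and tables, and r is a description of that contrast.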

How the data were processed

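RNA-seq was analysed from 21 libraries in 7 groups of 3, assigned from the labels. Per the study's methods, the authors aligned reads with kallisto to GRCm38, summed them by gene, computed CPM, kept genes above a CPM minimum, applied TMM and used voom with limma; the submitters' processing notes name STAR 2.7.3a, edgeR 4.0.16 and GRCm39 instead, and which of these made each table is not given in the sources used here. The authors deposited log2 CPM in 4 tables normalized separately, and the constant they added before the log understates changes of low genes.

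Groups in the same table were compared with limma-trend (limma 3.58.1, R 4.3.3) on the deposited log2 values of all genes, without covariates, with Benjamini-Hochberg adjustment and a threshold of 0.05. Differences between effects were fitted on 12 libraries over the genes shared by the tables. Low values of 3 tables correspond to whole reads within a tolerance of 0.1 reads once the constant is removed, which gave reads and depth; the ruxolitinib washout table does not. Since the unit is log2, no count test was run. The fits were tested on simulated data.

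All 10 genes of the list were to be named, with at most 6 called genes of each related list, the inhibition controls and the 5 genes most like Dusp6. The members, lists and tests were chosen with earlier results of these data known. Alternatives were other limma settings, centring, quantile normalization, minimum means of 1 and 3 log2 CPM, added constants of 1 and 5 CPM, a replicate block, stricter thresholds and leaving out each library. Positions are those of GENCODE for GRCm38, and promoters are from RefSeq; for Dusp4 and Egr1 no window was matched.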

Additional observations from a re-analysis of the deposited data

Results flagged for a closer look

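The effect of CHZ868 differed between 6 h of exposure and washout in each of the 7 ERK feedback genes with rows, by a test of the difference itself (limma-trend, 12 libraries, adjusted over 11175 genes). The 6 h effect minus the washout effect was -2.90 log2 units for Etv5, -2.84 for Dusp6, -1.68 for Dusp5, -1.32 for Dusp4, -1.28 for Spry2, -1.13 for Spred1 and -0.70 for Spred2. On the log2(CPM + 5) scale it was -1.91 for Etv5, -0.85 for Dusp5 and -0.80 for Spry2. Of all genes 23.8% were called in this direction.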

How the results depend on the processing

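Under every alternative run the count of 7 of 7 genes lower after CHZ868 for 6 h kept its side of the threshold. The same held for 7 of 7 for the 6 h effect against the washout effect and for 0 of 8 after ruxolitinib washout. The count after CHZ868 for 6 h was 6 with a filter at a mean log2 CPM of 3, which removes Dusp5. After ruxolitinib washout the alternatives called 0 to 9 of all 13085 genes, so a count of 0 among 8 genes could hardly change. With 1 library left out, 0 to 2 genes were called after CHZ868 washout, where 0% to 12.6% of all genes were. Dropping DMSO-wash replicate 1 or any CHZ868-wash library left at most 1 of 11355 genes called, so those counts of 0 could hardly differ. For the difference between the washout effects 0 to 2 genes were called, beside 0.0496% to 6.23% of all genes. Each count of 2, Spred1 and Spred2, came when DMSO-wash replicate 2 of the CHZ868 washout was dropped, with shares of 11.4% and 6.23%. For that difference quantile normalization, the filter at 3 and log2(CPM + 5) each gave 1, Spred1 (-0.48, -0.44 and -0.42, adjusted p = 0.0484, 0.0495 and 0.0487, limma). Of all genes 2.36%, 2.55% and 2.44% were called under these settings. With ruxolitinib for 6 h, 4 genes passed at a threshold of 1 log2 unit, where 3.12% of all genes did in either direction. Leaving out 1 library turned the sign of differences near 0: Dusp2 after ruxolitinib washout (-0.21 to 0.0060), and Dusp4 (-0.038 to 0.032) and Dusp6 (-0.040 to 0.045) between the washout effects. The causes were not tested. Same-numbered libraries correlated by -0.0654 to 0.0871 in their deviations. No shift shared by number was visible, but whether the numbers pair samples is unknown, since the labels do not give it. With a replicate block the counts were 7 after CHZ868 for 6 h, 0 after either washout, 0 for the difference between washouts and 7 for the 6 h effect against the washout effect. The shares of all genes called with the block, in either direction, were 53.1% after CHZ868 for 6 h and 45.7% for the 6 h effect against the washout effect. They were 0% after ruxolitinib washout, 4.75% after CHZ868 washout and 0.0595% for the difference between washouts. Of all values for single genes and lists under these alternatives, 1220 were scored as unchanged. For a tested gene that means the same sign and call, but for a count it allows a limited change. As an example, 15 to 20 cascade genes called after CHZ868 with 1 library left out were all scored as unchanged. Of the other values 9 newly passed the threshold, which are those of Spred1 and Spred2. A further 11 changed sign, which are those of Dusp2, Dusp4 and Dusp6, and 72 list counts or untested values moved. Depth limited Dusp5 and Etv5 most, with 17 and 16 reads in their lowest CHZ868-treated libraries.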

Other observations

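The solvent groups of the CHZ868 experiments were not alike, which was noticed after their values were seen. In DMSO-wash libraries of the CHZ868 experiment, centred on the library median, Dusp5 was higher than in DMSO-treated libraries by 1.67 log2 units, Dusp6 by 1.37, Etv5 by 1.33 and Spred2 by 0.87, each without overlap between the groups. Dusp4 (0.47) and Spred1 (0.18) also did not overlap but were under 0.58, and Spry2 (0.42) overlapped. By the rule of no overlap and at least 0.58 these are 4 of 7 genes, where 12.5% of 11175 genes met it on the higher side, and the deposited and quantile normalized values, added after seeing the data, gave 1.31 and 1.27 for Dusp6. How many of all genes did not overlap here was not computed, so lack of overlap alone says nothing about these 7 genes. The groups are in separately normalized tables, no test was run, and washing, time of collection and experiment cannot be told apart.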
